A study of Mus musculus with 6 samples.

Results

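The genes described here are 37 immediate-early and feedback genes of the AP-1, ATF, EGR, KLF, NR4A, IER, DUSP and mRNA-decay families, taken by symbol from the 57010 genes of the deposited count table. All 37 were found, and all 37 passed the filter on low counts that left 14575 genes for testing. Immediate-early genes are the genes a cell transcribes within minutes of a stimulus, without first making new protein. Their promoters are kept poised for the MAP kinase, cyclic AMP and serum response pathways. Their products are transcription factors of the AP-1, EGR, KLF and NR4A families, together with phosphatases and mRNA-decay proteins that shut the response down again. Macrophages use them to time cytokine and growth responses, and they are also known as genes that respond to the handling of tissue.

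The libraries were made from CD45+CD90.2- cells, sorted from hearts of mice of genotype Ova DTG, in which ovalbumin is made in the heart only. The library titles of both groups alike name cardiac-infiltrating cells and myocarditis. Every mouse, in both groups, had received OTI cells, naive CD8 T cells specific for ovalbumin. Of the 6 libraries, 3 are labelled OTI + ICI, for 200 µg each of an antibody against CTLA-4 and an antibody against PD-1, and 3 are labelled OTI + Isotype, all with the same batch date. They are called ICI and isotype libraries here, by those labels, and every direction given below rests on the labels. The sources used here do not give the promoter of the ovalbumin transgene, the age of the mice, the dose of isotype antibody or any pooling of animals.

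Levels are given in CPM, the count of a gene per 1000000 counts of the library, with library totals scaled by TMM normalization factors so that they match the fitted folds. The SD follows ± where a mean of 3 libraries is given. The leukocyte gene Ptprc stood at 1028 to 1339 CPM in all 6 libraries, and the T cell gene Thy1, which encodes the antigen used to exclude cells, at 0 to 0.0840 CPM. Total counts were lower in the ICI libraries (21528274 to 23713009) than in the isotype libraries (24657436 to 30736316), and the share of mitochondrial transcripts was higher (0.692% to 0.830% against 0.412% to 0.465%). Replicate 3 of each group had more Xist counts than Y-linked counts. Cell type markers differed between the groups. All 10 resident macrophage markers were called higher in the ICI libraries, with a summed level of 8769 to 10318 CPM against 275 to 354 CPM. Of 9 monocyte markers 6 were called lower and 2, Ace and Spn, higher, and Treml4 was not called. Their summed level was 642 to 965 CPM against 4280 to 9283 CPM, of which Chil3 alone held 102 to 108 CPM against 2031 to 6421 CPM. B cell markers were called higher in 7 of 7 cases (803 to 1527 CPM against 58.6 to 102 CPM), fibroblast markers in 7 of 8 (63.4 to 195 CPM against 11.9 to 15.8 CPM) and cardiomyocyte markers in 7 of 7 tested (38.7 to 48.8 CPM against 6.17 to 15.2 CPM). Natural killer cell markers were called higher in 7 of 7 cases (72.1 to 107 CPM against 31.0 to 41.4 CPM), mast cell markers in 5 of 6 (30.9 to 78.8 CPM against 14.1 to 27.3 CPM), endothelial markers in 6 of 7 tested (31.8 to 47.5 CPM against 21.0 to 28.1 CPM) and erythroid markers in 4 of 4 tested (17.4 to 36.5 CPM against 0.342 to 2.77 CPM). Neutrophil markers were called higher in 5 of 9 cases and not called in 4, and their summed levels overlapped (521 to 577 CPM against 421 to 536 CPM). Dendritic cell markers were called higher in 5 of 7 cases and lower in 2 (356 to 481 CPM against 138 to 201 CPM). Of 4 tested T cell markers, Cd4 and Cd3g were called higher, Trac was called lower and Cd3e was not called. The summed level of all 8 T cell markers, Thy1 included, was 10.7 to 19.8 CPM against 1.72 to 3.997 CPM. Of this, Cd4 alone held 9.09 to 17.4 CPM against 0.308 to 1.16 CPM. Of 8 general leukocyte and macrophage genes, Csf1r and Adgre1 were called higher and Fcgr1, Itgam and Cd68 lower. The part of these differences, and of total counts and mitochondrial share, in the values of the immediate-early genes was not tested. In such bulk libraries, fewer cells of a type and less RNA per cell cannot be told apart.

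The proximal promoters of 29 of the 37 genes were matched by symbol in RefSeq windows of build GRCm38.p6 that run from 250 bases before to 50 bases after a start site. The other 8, Egr1, Egr3, Fosl1, Klf10, Ier2, Dusp4, Sik1 and Myc, had no window and were not scanned. The 250 bases before the start are shown for 5 genes: Fos, Dusp1 and Zfp36, which are among the most abundant and rose, and Nr4a2 and Dusp5, the only members called lower in the ICI libraries. Capitals mark matches on either strand to the cyclic AMP response element (TGACGTCA), its 5-base core (TGACG, which lies inside the full element), the AP-1 site (TGAGTCA), the EGR site (GCGTGGGCG or GCGGGGGCG), the CArG box bound by serum response factor, and the TATA box (TATAAA).
Fos, chr12:85473640-85473889, plus strand: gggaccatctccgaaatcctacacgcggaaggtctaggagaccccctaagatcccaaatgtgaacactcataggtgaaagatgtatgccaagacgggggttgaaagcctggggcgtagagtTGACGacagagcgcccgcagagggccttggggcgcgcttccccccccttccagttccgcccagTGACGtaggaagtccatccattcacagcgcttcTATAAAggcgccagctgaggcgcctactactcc
Dusp1, chr17:26508473-26508722, minus strand: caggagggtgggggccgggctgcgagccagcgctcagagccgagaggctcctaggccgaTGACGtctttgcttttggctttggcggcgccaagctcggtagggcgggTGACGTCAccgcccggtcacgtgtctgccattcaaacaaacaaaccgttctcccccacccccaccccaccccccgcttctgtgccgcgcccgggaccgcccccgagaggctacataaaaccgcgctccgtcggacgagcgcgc
Zfp36, chr7:28379229-28379478, minus strand: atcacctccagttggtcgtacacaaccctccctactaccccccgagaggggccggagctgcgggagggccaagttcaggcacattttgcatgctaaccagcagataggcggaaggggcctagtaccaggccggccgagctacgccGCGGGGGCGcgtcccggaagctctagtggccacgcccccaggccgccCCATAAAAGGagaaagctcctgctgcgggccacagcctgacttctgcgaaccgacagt
Nr4a2, chr2:57124004-57124253, minus strand: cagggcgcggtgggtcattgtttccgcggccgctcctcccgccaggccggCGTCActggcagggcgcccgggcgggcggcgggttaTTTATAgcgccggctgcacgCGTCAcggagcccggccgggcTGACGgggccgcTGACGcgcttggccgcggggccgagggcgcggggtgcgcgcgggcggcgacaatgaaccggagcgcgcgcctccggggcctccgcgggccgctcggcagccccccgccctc
Dusp5, chr19:53528895-53529144, plus strand: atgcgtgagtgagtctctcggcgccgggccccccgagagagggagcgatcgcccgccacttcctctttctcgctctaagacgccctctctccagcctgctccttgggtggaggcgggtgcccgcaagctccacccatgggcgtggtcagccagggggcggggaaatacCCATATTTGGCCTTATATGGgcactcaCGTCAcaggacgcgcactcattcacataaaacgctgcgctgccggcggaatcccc

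The Fos window held the 5-base core at 129 and at 66 bases before the start and a TATA box at 33 bases before it. In Dusp1 a full cyclic AMP response element began 143 bases before the start, with a further core at 191 bases. The Zfp36 window held an EGR site at 105 bases and a CArG box at 58 bases before the start. Dusp5, which was called lower, held adjoining CArG boxes at 82 and 72 bases and the core at 55 bases before the start. Nr4a2, also called lower, held the core at 200, 144, 123 and 111 bases and a TATA box, on the other strand, at 164 bases. Over whole windows, counting a gene with several windows once, the core was found in 18 of the 29 members with a window (62.1%) and in 23.05% of all genes with one. The full element was found in 4 of 29 members (13.8%, all genes 2.03%), the EGR site in 8 (27.6%, all genes 3.93%), the CArG box in 3 (10.3%, all genes 1.81%), the TATA box in 7 (24.1%, all genes 15.67%) and the AP-1 site in 1 (3.4%, all genes 5.95%). The core occurred in 12 of the 23 members with a window that were called higher, in both of the 2 called lower and in all 4 not called. These matches are descriptions of letters in the windows, and base composition was not matched between members and other genes.

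Most of the 37 genes were higher in the ICI libraries. In edgeR's quasi-likelihood test, with Benjamini-Hochberg adjustment over all 14575 genes and a call at an adjusted p under 0.05, 29 members (78.4%) were called higher, where 35.0% of all genes tested were. Only 2 members (5.41%) were called lower, where 33.9% of all genes were, and 6 were not called. In all, 31 members (83.8%) were called in either direction, against 68.9% of all genes. The median member was 1.97-fold higher (log2 fold change 0.98), and the median of all genes tested was 0.03. Of the members 17 (45.9%) were called higher by over 2-fold, against 20.9% of all genes, and 23 (62.2%) passed a test against a 1.5-fold change as higher, against 21.3%. The groups were apart, without overlap, for 31 members (83.8%) and for 73.8% of all genes. With library totals alone, without TMM factors, the median of all genes moved to 0.23 and calls over all genes split into 6255 higher and 3724 lower instead of 5102 and 4938. The members then split into 30 higher and 1 lower. In replicates 1 and 2 of each group only, 27 members were called higher and 3 lower, where 32.4% and 30.8% of 14721 genes tested were.

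**Figure D1:**
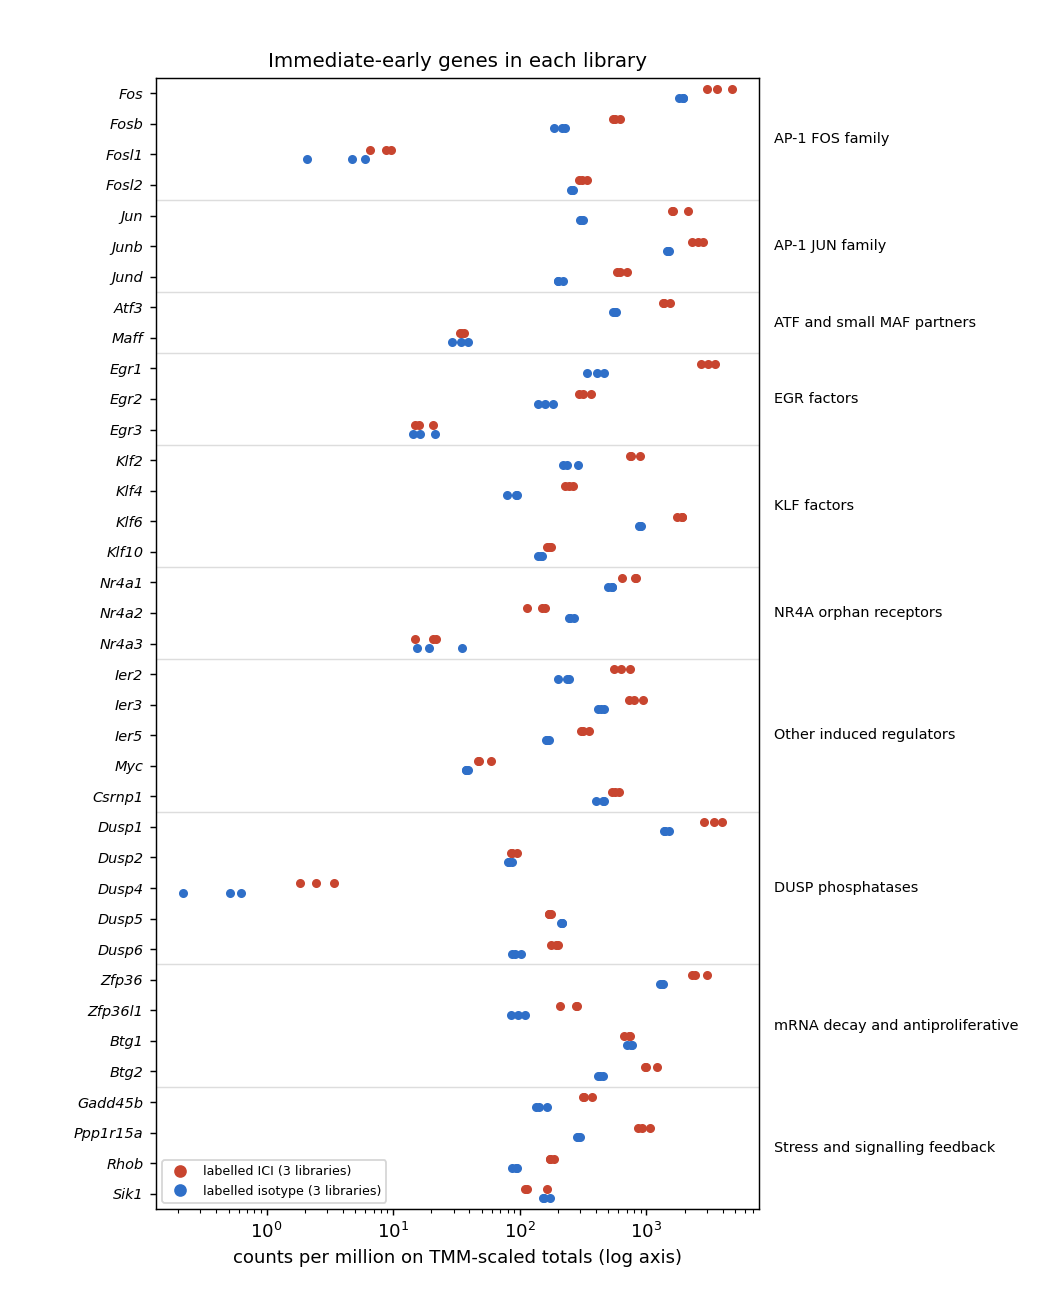
Level of each of the 37 genes in each of the 6 libraries, in CPM on TMM-scaled totals, on a log axis, grouped by role. Red points are the 3 ICI libraries and blue points the 3 isotype libraries; the groups are apart for 31 genes, with Nr4a2 and Dusp5 lower in the ICI libraries.

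The FOS family supplies partners that bind DNA only when paired with a JUN protein. All 4 members were called higher in the ICI libraries. Fos, the founding member, was at 4722, 3025 and 3615 CPM in ICI replicates 1, 2 and 3 and at 1934, 1814 and 1940.0 CPM in isotype replicates 1, 2 and 3, in which order all values below are given. Every ICI library was above every isotype library, and the ICI libraries were spread more widely. The log2 fold change was 1.00 (SE 0.15, edgeR adjusted p = 0.00026). Fosb, which like Fos carries a transactivation domain, was at 615, 549 and 559 CPM and at 217, 185 and 229 CPM, a log2 fold change of 1.45 (SE 0.10, adjusted p = 1.47e-06). The groups were well apart. Fosl2, which lacks that domain, was at 312, 293 and 337 CPM against 259.9, 263 and 252 CPM, close together although without overlap. Its log2 fold change was 0.28 (SE 0.08, adjusted p = 0.0118). The call was lost without isotype replicate 1 (adjusted p = 0.0530), in replicates 1 and 2 of each group only (0.102) and against a 1.5-fold change. Fosl1 was scarce, at 6.55, 8.81 and 9.54 CPM against 4.73, 6.03 and 2.08 CPM. It rose by a log2 fold change of 0.98 (SE 0.34, adjusted p = 0.0335), a call lost without ICI replicate 2 (0.0847), ICI replicate 3 (0.0826) or isotype replicate 1 (0.0682). The call was also lost without the filter on low counts (0.103) and against a 1.5-fold change (0.143). In replicates 1 and 2 of each group only, the log2 fold change of Fosl1 was 0.52 and not called (adjusted p = 0.0721). An exon of Ccdc85b overlaps Fosl1 on the opposite strand in the annotation used here, with 1145 counts against 933 for Fosl1, and the libraries carry no strand, so the level of Fosl1 is uncertain.

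JUN proteins pair with FOS proteins or with one another. All 3 members were called higher, and Jun had the second highest fold of all 37. Jun was at 2134, 1591 and 1629 CPM in the ICI libraries, and the isotype libraries lay close together at 314, 306 and 299 CPM. The log2 fold change was 2.54 (SE 0.13, adjusted p = 1.93e-07). Jund, the member usually described as constitutive, was at 704, 589 and 619 CPM against 199, 220.4 and 199 CPM, a log2 fold change of 1.63 (SE 0.10, adjusted p = 5.73e-07). Junb, a weaker activator that can restrain Jun, was the most abundant JUN gene by CPM, at 2779.8, 2302 and 2560.4 CPM against 1443, 1485 and 1497 CPM. Its rise was smaller, with a log2 fold change of 0.79 (SE 0.10, adjusted p = 6.12e-05). Per kilobase of transcript, Jun held 25.5%, 23.5% and 22.2% of the summed JUN level in the ICI libraries and 9.70%, 9.14% and 9.00% in the isotype libraries. The share of Junb was 60.0% ± 1.57 (SD, n = 3) against 78.8% ± 0.673 (n = 3), so the makeup of the JUN family shifted towards Jun and Jund in every ICI library. The FOS family held its makeup more closely, with Fos at 88.3% ± 1.77 and 89.3% ± 0.126 of the summed level. Fosb made up 9.00% ± 1.30 against 6.50% ± 0.461, and Fosl2 2.42% ± 0.434 against 3.93% ± 0.226.

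Atf3, a stress-induced factor that binds AP-1 and cyclic AMP response elements and restrains inflammatory genes in macrophages, was at 1537, 1359 and 1373 CPM in the ICI libraries. The isotype libraries were at 542, 574 and 569 CPM. The rise was by a log2 fold change of 1.34 (SE 0.09, adjusted p = 1.15e-06). The small MAF factor Maff, which has no transactivation domain of its own, was at 34.3, 36.3 and 34.0 CPM against 38.6, 34.0 and 29.3 CPM. These values overlapped, and Maff was not called (log2 fold change 0.04, SE 0.11, adjusted p = 0.775). Its sign turned without isotype replicate 3 (-0.081).

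EGR factors are zinc finger proteins induced through serum response factor. Egr1 had the largest fold of the 37 genes. It was at 3476, 2683 and 3037 CPM in the ICI libraries and at 458, 408 and 340.1 CPM in the isotype libraries, so the lowest ICI value was far above the highest isotype value. The log2 fold change was 2.93 (SE 0.14, adjusted p = 1.79e-07), and 6.59% of all genes tested had a larger positive one. Egr2 was at 368, 314 and 293 CPM against 183, 157 and 139 CPM and rose by a log2 fold change of 1.03 (SE 0.12, adjusted p = 4.41e-05). Egr3 was low, at 15.0, 16.1 and 20.5 CPM against 21.3, 14.4 and 16.2 CPM, and the groups overlapped. It was not called (log2 fold change -0.01, SE 0.17, adjusted p = 0.952), and its sign turned with library totals alone (0.19), with upper-quartile factors (0.17) and without ICI replicate 1 (0.079), ICI replicate 2 (0.038) or isotype replicate 1 (0.15). Per kilobase, Egr1 made up 87.0% ± 1.02 of the summed EGR level in the ICI libraries and 63.0% ± 1.02 in the isotype libraries (SD, n = 3 each). Egr2 made up 12.3% ± 1.06 against 33.3% ± 0.523. Counts of Egr1 per count of Egr3 were 232, 167 and 148 in the ICI libraries and 21.5, 28.2 and 21.0 in the isotype libraries. These ratios need no scaling between libraries, and they did not overlap.

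KLF factors are zinc finger proteins that restrain or shape macrophage activation, and all 4 members were called higher. Klf2, known for its anti-inflammatory role in myeloid cells, was at 892, 751 and 739 CPM compared with 219, 236 and 289.6 CPM (log2 fold change 1.68, SE 0.13, adjusted p = 2.14e-06). Klf4, associated with alternative macrophage activation, was at 265, 226 and 246 CPM compared with 95.3, 79.2 and 92.4 CPM (log2 fold change 1.47, SE 0.10, adjusted p = 1.27e-06). Klf6, which promotes inflammatory gene expression in macrophages, was the KLF member with the highest CPM. Its level was 1919, 1903 and 1746 CPM in the ICI libraries and 871, 903 and 889 CPM in the isotype libraries, with little spread within either group. The log2 fold change was 1.06 (SE 0.09, adjusted p = 3.71e-06). Klf10, a target of TGF-beta signalling, moved least, at 171, 175 and 163 CPM compared with 139, 146 and 150.1 CPM (log2 fold change 0.22, SE 0.08, adjusted p = 0.0256). That call was lost without ICI replicate 1 (0.0604), ICI replicate 2 (0.0697), isotype replicate 1 (0.141) or isotype replicate 2 (0.0637). The call was also lost without the filter on low counts (0.0764) and against a 1.5-fold change. Per kilobase, the share of Klf2 in the summed KLF level was 42.4% ± 1.86 in the ICI libraries and 31.3% ± 2.90 in the isotype libraries, and that of Klf10 was 6.21% ± 0.363 against 12.6% ± 0.303.

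**Figure D2:**
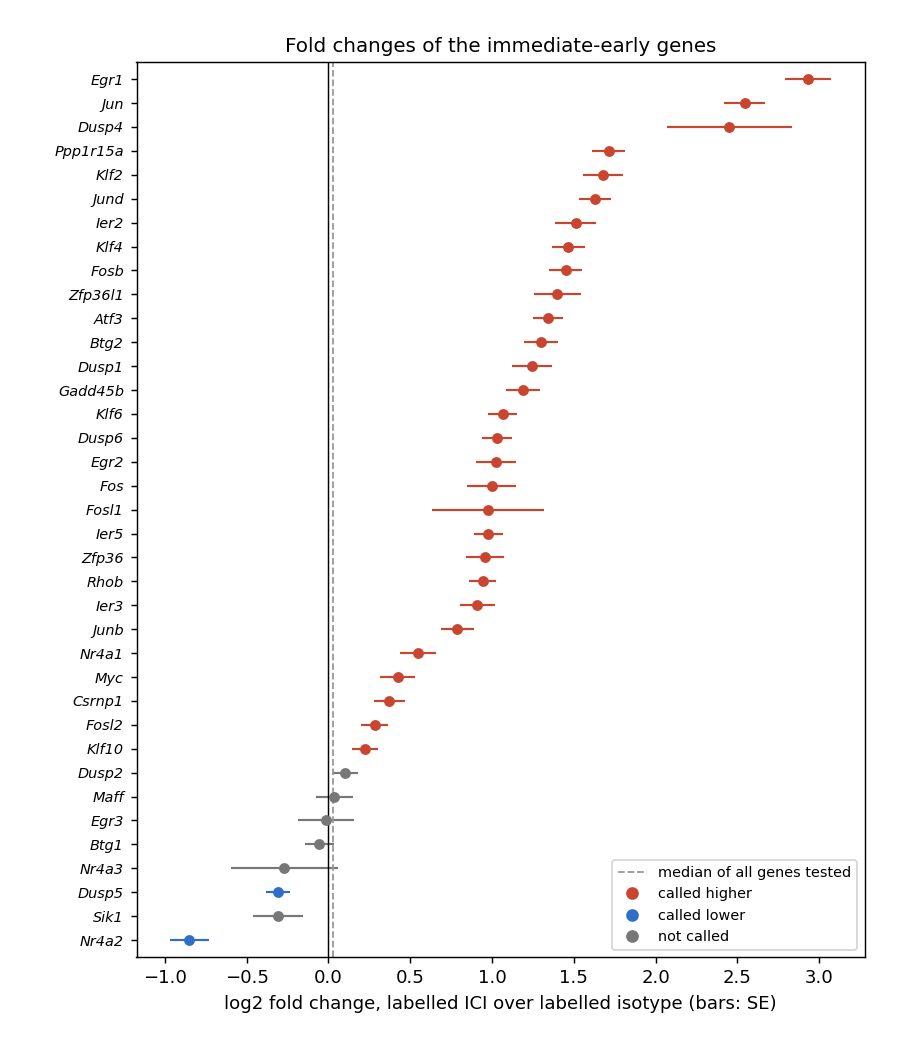
Log2 fold change of each of the 37 genes, ICI over isotype libraries, with bars of 1 SE from the edgeR fit; red is called higher, blue called lower and grey not called, and the dashed line is the median of all genes tested. The range runs from -0.85 for Nr4a2 to 2.93 for Egr1.

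NR4A receptors are nuclear receptors that act without a known hormone, and they split. Nr4a1, which restrains inflammatory macrophages and is needed for patrolling monocytes, was at 829, 642 and 807 CPM in the ICI libraries and 537, 531 and 493 CPM in the isotype libraries. It rose by a log2 fold change of 0.55 (SE 0.11, adjusted p = 0.00136), and did not pass the test against a 1.5-fold change (adjusted p = 0.627). Nr4a2 went the other way, at 114, 149.9 and 157 CPM against 268, 243 and 248 CPM. Every ICI library was below every isotype library, with a log2 fold change of -0.85 (SE 0.12, adjusted p = 0.000146), and no other member fell by more. Nr4a3 was scarce and spread widely, at 14.9, 21.7 and 20.7 CPM against 34.7, 15.3 and 19.0 CPM, and was not called (log2 fold change -0.27, SE 0.33, adjusted p = 0.491). Its sign turned without isotype replicate 1 (0.13). Nr4a1 counts per Nr4a2 count were 7.29, 4.29 and 5.13 in the ICI libraries against 2.01, 2.18 and 1.98 in the isotype libraries, without overlap. The summed CPM of the 3 receptors, 814 to 985 against 760.0 to 840.0, overlapped.

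Ier2, Ier3, Ier5, Myc and Csrnp1 are early response genes outside these families, and all 5 were called higher. Ier2, a nuclear protein induced by growth factors, was at 747, 554 and 631 CPM compared with 244, 234 and 200.1 CPM (log2 fold change 1.51, SE 0.13, adjusted p = 4.09e-06). Ier3, a survival factor induced through NF-kB, was at 794, 732 and 938 CPM against 461, 412 and 437 CPM, a log2 fold change of 0.91 (SE 0.11, adjusted p = 4.23e-05). Ier5, a regulator of heat shock factor, was at 303, 354 and 317 CPM against 160.0, 164 and 171 CPM, a log2 fold change of 0.98 (SE 0.09, adjusted p = 6.79e-06). Each of these genes separated the groups clearly. Csrnp1, a nuclear protein with a cysteine- and serine-rich domain, was at 607, 560.1 and 534 CPM compared with 466, 453 and 396 CPM (log2 fold change 0.37, SE 0.09, adjusted p = 0.00557). Myc, the growth and proliferation factor, was at 47.4, 46.4 and 59.2 CPM compared with 37.8, 39.0 and 37.3 CPM (log2 fold change 0.42, SE 0.11, adjusted p = 0.00523). For Csrnp1 and Myc the gap between the groups was small, and neither passed the test against a 1.5-fold change (adjusted p = 1.00 for each).

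DUSP phosphatases remove phosphate from MAP kinases and so end the signal that induced them. The members went 3 ways. Dusp1 acts on p38 and JNK and limits cytokine production in macrophages. In the ICI libraries it had the highest mean of all 37 genes per kilobase, 1891 ± 302 CPM per kilobase. Fos, at 1797 ± 409, differed from it by less than the spread. Dusp1 was at 3927, 2843 and 3413 CPM in the ICI libraries and at 1387, 1400.2 and 1513 CPM in the isotype libraries. Its log2 fold change was 1.24 (SE 0.12, adjusted p = 1.47e-05). Dusp6, a cytoplasmic phosphatase for ERK, was at 199.6, 177 and 194 CPM compared with 91.9, 86.0 and 101 CPM (log2 fold change 1.03, SE 0.09, adjusted p = 6.41e-06). Dusp4, a nuclear phosphatase, had few counts, 44, 62 and 81 counts in the ICI libraries and 17, 5 and 15 in the isotype libraries. Its level was 1.84, 2.46 and 3.40 CPM compared with 0.623, 0.220 and 0.512 CPM (log2 fold change 2.45, SE 0.38, adjusted p = 0.000274). Dusp5, a nuclear phosphatase for ERK, was lower in every ICI library, at 169, 171 and 176 CPM against 215, 209.6 and 214 CPM. Its log2 fold change was -0.31 (SE 0.07, adjusted p = 0.00409). That call depended on the scaling, and was lost with library totals alone (log2 fold change -0.10, adjusted p = 0.258) and with upper-quartile factors (-0.12, adjusted p = 0.154). Dusp2, an inducible nuclear phosphatase of immune cells, was at 86.6, 85.4 and 95.1 CPM against 80.1, 82.3 and 86.6 CPM, which overlapped. It was not called (log2 fold change 0.10, SE 0.08, adjusted p = 0.286), but was called higher with library totals alone (0.31, adjusted p = 0.0125) and upper-quartile factors (0.28, adjusted p = 0.0116). Counts of Dusp1 per count of Dusp5 were 23.2, 16.6 and 19.3 in the ICI libraries and 6.44, 6.68 and 7.07 in the isotype libraries, without overlap. These ratios need no scaling, but they move with the rise of Dusp1 and so do not bear on the call of Dusp5 alone.

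**Figure D3:**
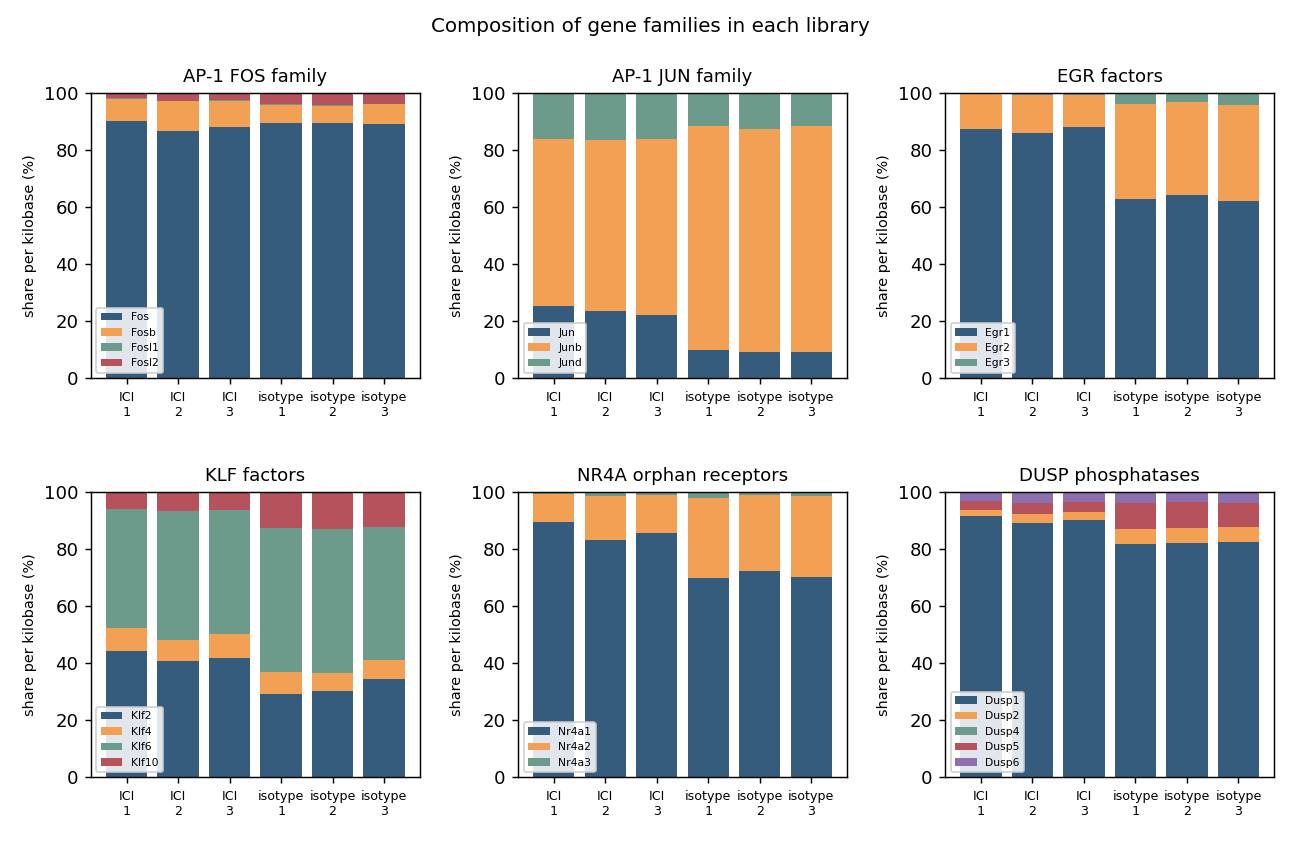
Share of each member in the summed level of its family in each library, in percent, from CPM per kilobase of transcript. Jun, Egr1, Klf2, Nr4a1 and Dusp1 take a larger share in each of the 3 ICI libraries than in any isotype library, and Junb, Egr2, Klf10, Nr4a2 and Dusp5 a smaller one.

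Zfp36, which encodes tristetraprolin, binds AU-rich elements and speeds the decay of cytokine mRNAs. It was at 3018, 2298 and 2401 CPM in the ICI libraries and at 1286, 1356 and 1331 CPM in the isotype libraries (log2 fold change 0.96, SE 0.12, adjusted p = 5.14e-05). Its relative Zfp36l1 was at 279, 206 and 282 CPM compared with 96.0, 84.9 and 110.2 CPM (log2 fold change 1.40, SE 0.14, adjusted p = 2.71e-05). Btg2, an antiproliferative protein that recruits the deadenylation machinery, was at 1205, 999.7 and 969 CPM against 427, 453 and 411 CPM, a log2 fold change of 1.30 (SE 0.10, adjusted p = 3.49e-06). Btg1, its close relative and a gene of quiescent leukocytes, was at 665, 743 and 735 CPM against 761, 698 and 771 CPM. The groups overlapped and Btg1 was not called (log2 fold change -0.06, SE 0.09, adjusted p = 0.588); its sign turned with library totals alone (0.15) and upper-quartile factors (0.13). Per count of Btg1 there were 1.81, 1.35 and 1.32 counts of Btg2 in the ICI libraries and 0.561, 0.649 and 0.533 in the isotype libraries. The more abundant of the pair by counts was therefore Btg2 in each ICI library and Btg1 in each isotype library.

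Among the stress and signalling feedback genes, 3 of 4 were called higher. Ppp1r15a, or Gadd34, directs dephosphorylation of the translation factor eIF2 alpha, and was at 1069.5, 863 and 918 CPM compared with 290.2, 282 and 297 CPM (log2 fold change 1.71, SE 0.10, adjusted p = 5.19e-07). Gadd45b, an activator of the p38 and JNK pathways, was at 321, 316 and 369.8 CPM compared with 164, 134 and 143 CPM (log2 fold change 1.19, SE 0.10, adjusted p = 5.79e-06). Rhob, an inducible small GTPase of endosomes, was at 186, 172 and 172 CPM compared with 94.0, 95.4 and 86.2 CPM (log2 fold change 0.94, SE 0.08, adjusted p = 5.49e-06). The groups were apart for all 3. Sik1, a kinase induced by cyclic AMP that holds back CREB coactivators, was at 109, 115 and 164 CPM against 156, 152 and 172 CPM, and ICI replicate 3 overlapped the isotype libraries. It was not called (log2 fold change -0.31, SE 0.15, adjusted p = 0.0982), but was called lower without ICI replicate 3 (-0.51, adjusted p = 0.00154).

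Levels can be compared between genes per kilobase of transcript. On that scale the isotype libraries were led by Fos (899 ± 33.8 CPM per kilobase), Junb (815 ± 15.8), Dusp1 (799 ± 38.7) and Zfp36 (504 ± 13.4; SD, n = 3 for each), and the ICI libraries by Dusp1 (1891 ± 302), Fos (1797 ± 409), Junb (1408 ± 132) and Zfp36 (979 ± 148). Junb and Dusp1 in the isotype libraries, and Dusp1, Fos and Junb as neighbours in the ICI libraries, differed by less than their spread. The same 4 genes held the first 4 places in both groups. Egr1 moved from place 17 in the isotype libraries to place 5 in the ICI libraries, Jun from 18 to 8, Btg1 from 7 to 17 and Nr4a2 from 20 to 30. Of the 30 with a mean of at least 100 CPM over all libraries 28 were called, 26 higher and 2 lower, and of the 7 below it 3 were called, all higher. Jun, Junb, Jund, Ier2, Ier5 and Rhob have 1 exon in every coding transcript of the annotation used here, and all 6 were called higher, as were 23 of the 31 with introns. Of all genes tested, whatever their level or exons, 35.0% were called higher and 33.9% lower. Shares of all genes by level or by exons were not computed, and the part of either in these counts was not tested. RNA was treated with DNase, per the labels' protocol. For genes of 1 exon, reads of genomic DNA and of spliced RNA cannot be told apart in a count table.

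In sum the 37 genes took 3.64%, 2.96% and 3.35% of all counts in ICI replicates 1, 2 and 3, and 1.31%, 1.28% and 1.35% in the isotype replicates. The ICI libraries differed from each other in the members more than the isotype libraries did. The median coefficient of variation over the members was 11.3% in the ICI and 5.42% in the isotype libraries, whereas over all genes tested it was 11.1% and 10.6%. ICI replicate 1 was the highest of the 3 ICI libraries for 20 members (54.1%; 33.7% of all genes tested) and ICI replicate 2 the lowest for 20 members (54.1%; 34.3% of all genes). Both held for 14 members, all of them called higher: Fos, Fosb, Jun, Junb, Jund, Atf3, Egr1, Klf4, Nr4a1, Ier2, Dusp1, Dusp6, Zfp36 and Ppp1r15a. The members share regulators, so these counts are not independent across genes. Summed resident macrophage markers stood at 10318, 8769 and 9337 CPM in ICI replicates 1, 2 and 3. Leukocyte and macrophage markers stood at 23198, 19776 and 20321 CPM, in the same order. Summed neutrophil and cardiomyocyte markers also had that order, and the sums of the other marker lists did not. The part of cell makeup in the order of the members was not tested.

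The other genes of the pathway were read from lists that do not hold the members, apart from Ier3 in the list of tristetraprolin targets. The MAP kinase cascade itself showed no common direction, with 7 of 24 measured genes called higher, 7 lower and 10 not called (median log2 fold change 0.02). With library totals alone this split was 12 higher and 4 lower. Map3k8, the kinase that links toll-like and TNF receptors to ERK, was at 342 ± 14.0 CPM against 88.5 ± 4.09 CPM, which is 3.87-fold higher (SE 0.08 on the log2 scale, adjusted p = 7e-08). Mapk13, a scarce p38 isoform, was 6.50-fold lower (2.06 ± 0.0311 CPM against 13.4 ± 1.25 CPM) and Mapkapk3, a kinase downstream of p38, 2.41-fold lower. Among 14 regulators of immediate-early promoters 7 were called higher, 3 lower and 4 not called, with a median of 0.24. Srf, which encodes serum response factor, was at 17.6 ± 1.04 CPM against 36.9 ± 3.58 CPM, 2.09-fold lower (adjusted p = 1.44e-05). Creb1 and its coactivator Crebbp were 1.88-fold and 1.77-fold higher, and the CREB coactivator Crtc3 was 1.36-fold lower.

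Feedback genes outside the members were mostly higher. Of 13 tested phosphatases and ERK inhibitors 10 were called higher and 1 lower (median 0.91). Errfi1, an inhibitor of EGF receptor kinases, was 3.06-fold higher and the scarcer Dusp8 5.90-fold higher (15.1 ± 1.09 CPM against 2.54 ± 0.706 CPM). Dusp10, a phosphatase for p38 and JNK, was at 21.5 ± 1.51 CPM against 52.4 ± 4.64 CPM, 2.43-fold lower (adjusted p = 3.06e-06). Among 9 tested KLF genes 7 were called higher, Klf3, Klf7 and Klf11 by 1.93-fold, 1.90-fold and 1.72-fold, and Klf13 was 1.25-fold lower (median 0.92). The call of Klf13 was lost with library totals alone and with upper-quartile factors, and 2 KLF genes of this list were called lower without isotype replicate 3. The EGR corepressor Nab2 was 1.31-fold lower, a call lost with library totals alone and with upper-quartile factors. Nab1 was not called (143 ± 10.5 CPM against 159 ± 21.7 CPM, adjusted p = 0.227), but both corepressors were called lower without isotype replicate 3. Other AP-1, ATF and MAF genes went both ways, 6 higher, 4 lower and 6 not called of 16 (median 0.10). With library totals alone, and with upper-quartile factors, 7 were called higher and 2 lower. Maf was 3.11-fold and Atf7 1.81-fold higher, and Nfil3 and Batf2 were 2.56-fold and 3.61-fold lower.

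Other mRNA-decay and antiproliferative genes were called higher in 6, lower in 3 and not called in 7 of 16 cases (median -0.03). Without isotype replicate 1 only 3 were called higher, and without any other single library 4. With library totals alone 7 were called higher and 1 lower. Tob1, a relative of the BTG proteins, was 2.61-fold higher, the deadenylase gene Cnot6l 1.92-fold and Tob2 1.40-fold higher. Hnrnpd, which encodes the AU-rich element binding protein AUF1, and the deadenylase gene Cnot7 were 1.41-fold and 1.37-fold lower. Of 18 tested mRNAs known as targets of tristetraprolin, 10 were called higher and 5 lower (median 0.76). Cxcl2, a neutrophil attractant, was at 882 ± 84.4 CPM against 348 ± 39.0 CPM, 2.54-fold higher (adjusted p = 4.2e-06), and Tnf at 259.9 ± 14.7 CPM against 129.8 ± 15.0 CPM, 2.00-fold higher. In contrast Ptgs2, the inducible cyclooxygenase, was at 132 ± 31.1 CPM against 835 ± 121 CPM, 6.31-fold lower (adjusted p = 1.2e-05), and the cytokine gene Osm was 2.01-fold lower. Early genes outside the named families were called higher in 18 and lower in 6 of 30 cases (median 0.55). Arc, an immediate-early gene best known from neurons, was at 61.2 ± 3.14 CPM against 3.19 ± 0.171 CPM, 19.1-fold higher (adjusted p = 4.87e-09), Tsc22d1 was 9.22-fold and Cebpd 6.27-fold higher, and the kinase gene Sgk1 was 2.11-fold lower. Heat shock genes were called higher in 10 and lower in 2 of 13 cases (median 1.35), and lower in 1 with library totals alone or upper-quartile factors. Hspb1, Dnajb4 and Dnajb1 were 37.6-fold, 5.74-fold and 3.46-fold higher, and the mitochondrial chaperone genes Hspe1 and Hspd1 were 2.25-fold and 1.29-fold lower. The fold of Hspb1 rests on a low isotype level, 29.7 ± 4.67 CPM against 0.794 ± 0.159 CPM. The more abundant Hspa1a and Hspa1b, named after their values were seen, were 27.6-fold and 31.4-fold higher. Hspa1a was at 2136 ± 625 CPM against 77.5 ± 23.5 CPM, and Hspa1b at 1619.5 ± 361 CPM against 51.5 ± 23.1 CPM. These lists are described by their counts and medians beside the 35.0% of all genes called higher and the median of 0.03, without a test of any list.

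**Figure D4:**
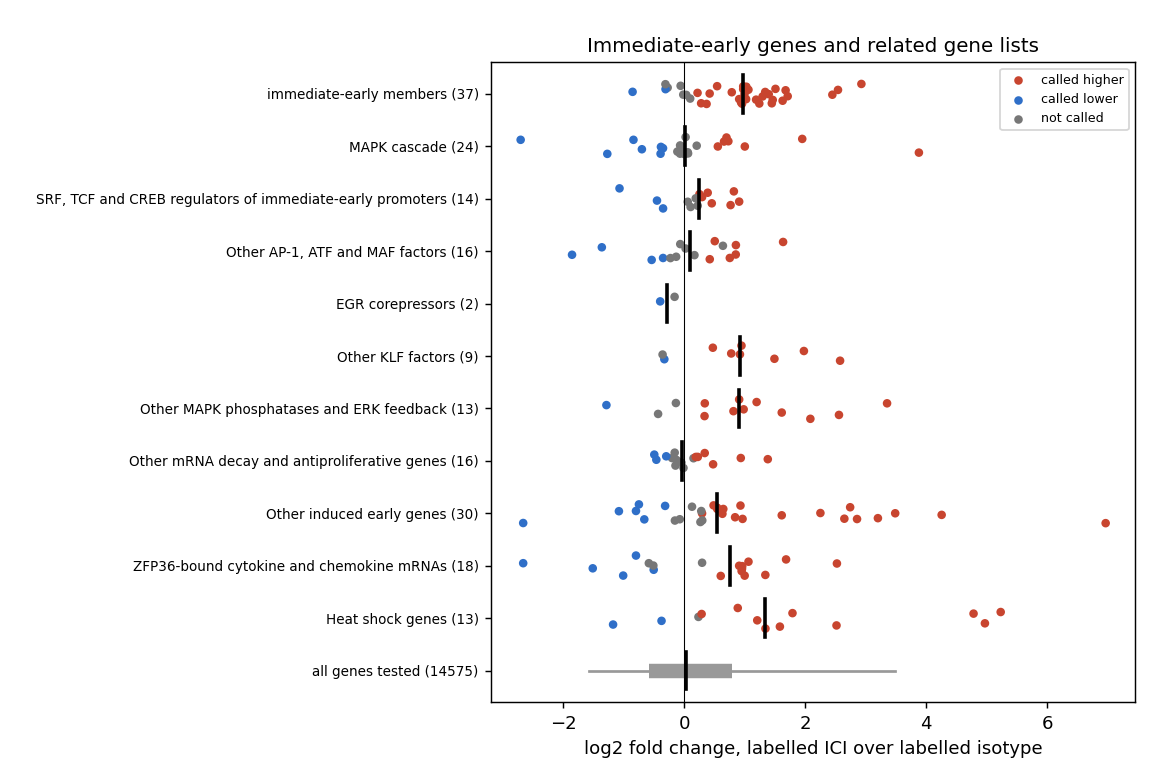
Log2 fold changes, ICI over isotype libraries, of the 37 immediate-early genes and of the tested genes of related lists (number in brackets); each point is 1 gene, red called higher, blue called lower, grey not called, and black bars are medians. The bottom row gives all 14575 genes tested, with a box from the 25th to the 75th and a line from the 5th to the 95th percentile (-0.57 to 0.79 and -1.58 to 3.49).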

How the data were processed

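RNA from 6 sorted-cell libraries was sequenced as non-directional SMART-seq V4 libraries, per the labels' protocols. The authors deposited whole-number raw counts per Ensembl gene, not normalized. Build GRCm39, Salmon 1.10.1 and STAR 2.7.10a were used in steps that are not specified, per the submitters' processing notes; annotation release and strand setting: not given in the sources used here. Symbols came from an identifier table (52029 of 57010 matched, 91.3%).

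Counts were fitted with edgeR 4.0.16 in R 4.3.3 (TMM factors, filterByExpr with a minimum count of 10, glmQLFit with robust estimation, glmQLFTest). Each SE is the size of the log2 fold change divided by the square root of F. The tested genes held 99.9% of counts. The fit was also run on simulated data, and the outcome of that run is not given here. Alternatives were DESeq2 1.42.0, limma 3.58.1 (voom), other factors, other filters, a 1.5-fold test, a replicate block, left-out libraries and, added after the data were seen, a sex term (replicate 3 of each group against the others). Replicates are labelled biological; their counts differed by 12.8 to 35.3 in chi-square per degree of freedom, well above sampling noise. Transcript lengths (mean of basic coding transcripts), exons and overlaps came from GENCODE M21, an older build than GRCm39. Besides Fosl1, 5 members overlap a gene on the opposite strand whose counts were at most 0.670% of theirs; Zfp36l1 also overlaps a gene on the opposite strand, Gm26669, which was not analysed here. The reads carry no molecular identifiers.

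The members and lists were chosen with earlier results of these data known, so no list was tested. Named were all 37 members and, from each related list, the 3 genes with the smallest p and up to 2 called against the list's main direction. Hspa1a and Hspa1b were named besides, after their values were seen.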

Additional observations from a re-analysis of the deposited data

How the results depend on the processing

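Over 17 other settings, 589 of 628 fold changes of single members kept their direction and their side of the threshold, and 24 of 37 members did so in every setting. The members called higher numbered 23 to 30 (26 to 29 with 1 library left out). The members called lower numbered 1 with upper-quartile factors, 1 with library totals alone and 1 against a 1.5-fold change, and otherwise 2 or 3. Over the same settings, 21.3% to 42.9% of all genes tested were called higher and 16.5% to 35.5% lower. Against a 1.5-fold change 5520 genes were called in all, and 64 genes of the related lists instead of 110; a higher bar for the fold is part of that test. The sign of 4 members that were not called turned. Egr3 had a log2 fold change of 0.17 with upper-quartile factors, 0.19 with library totals alone, 0.074 with the strict filter (50 counts in 3 libraries) and -0.15 to 0.15 with 1 library left out. Btg1 had 0.13, 0.15 and 0.029 in the first 3 of these settings. Maff had -0.044 in replicates 1 and 2 of each group only and -0.081 to 0.12 with 1 library left out, and Nr4a3 -0.49 to 0.13 with 1 library left out; the cause was not tested. Of 340 counts of related lists 29 moved by over 1.5 times, 12 of them against a 1.5-fold change and 12 with another scaling. Same-numbered replicates correlated at 0.04, 0.06 and 0.13 in their deviations from the group means, so the numbers were not taken as pairs, and ICI replicate 2 correlated best with isotype replicate 1. With a replicate block 9991 genes were called instead of 10040, and of the members 29 were called higher and 3 lower, Sik1 among them (adjusted p = 0.0201). With the sex term, an alternative chosen after seeing the data, 10077 genes and the same numbers of members were called. Low counts limit the precision for Dusp4, with 5 to 81 counts in a library, more than for any other member.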
